A study of Drosophila melanogaster with 30 samples.

Results

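The comparison set 3 arrays of Drosophila Kc cells depleted of Myb by RNAi against 3 arrays of Kc cells treated with the control RNA SK+, an unrelated RNA made from the pBSK+ plasmid. The members are all probe sets on these 6 of the 30 arrays, apart from 44 manufacturer's controls, which left 13966 of the 14010 in the table. Kc is an embryonic, hemocyte-like fly line that the labels describe as tetraploid and female. Every group had 4 days of RNAi, and biotin-labelled cRNA was made from 10 micrograms of total RNA per array. The other 8 groups were knock-downs of Mip130, Lin-52, Mip40, Mip120, E2F2, both RBF proteins together, L(3)MBT and E2F1. The Mip130, Lin-52 and E2F2 groups are set directly against the Myb knock-down further on. All groups are the same line grown in culture, with no genetic change described, and nothing tells whether the replicates were separate cultures. The p-values therefore measure the spread between these arrays only, which may be technical.

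Myb is a DNA-binding transcription factor that in flies works within Myb-MuvB, also called dREAM. In this complex the MuvB core (Mip130, Mip120, Mip40, Lin-52 and Caf1-55) is joined to Myb and to a repressor made of E2F2, Dp and an RBF protein. The complex is known for keeping some genes silent in somatic cells, germ line genes among them, and Myb within it is known for activating genes that cells use in G2 phase and mitosis. The comparison asks which transcripts depend on Myb in cells where no other subunit was targeted by RNAi.

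Knock-down of Myb was followed by moderate shifts in 451 of 7794 tested probe sets (5.79%), of which 184 were higher (2.36%) and 267 lower (3.43%) than in the control. Of 92 tested mitosis genes 21 fell, among them genes of the spindle, of cytokinesis and of mitotic entry. Of 49 genes of DNA replication and the start of S phase 18 rose, by small amounts. The largest single changes were in genes outside both groups, such as the stathmin gene stai, which fell, and the actin-nucleation paralog Arpc3B, which rose. A probe set was called where limma's two-sided test, fitted to all 30 arrays, gave a Benjamini-Hochberg adjusted p under 0.05, and "rose" or "fell" is used only of calls. Values are log2 signals, so a difference of 1 is a doubling.

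The median size of a called difference was 0.34 on the log2 scale, against a median standard error of 0.07, and 23 called probe sets passed 2-fold, 11 of them higher and 12 lower. The median difference over all tested probe sets was 0.01. The median signal of the 6 arrays ran from 6.54 to 6.57. Myb replicate 3 and Control replicate 3 stood farthest from the others of their group, with root mean square differences of 0.177 and 0.161, against 0.108 to 0.129 for the other 4 arrays. Signals of the 23 probe sets for non-fly RNA, taken here as a background range, had means from 3.16 to 6.31 on the Myb knock-down arrays and from 3.16 to 6.22 on the control arrays. A fold change of a gene in that range is compressed towards no change. Of 13 hemocyte markers on the array, 8 lay above the background range in both groups. Among them srp, ush and Pvr were at 7.80, 7.43 and 10.04 in Myb knock-down cells and at 7.86, 7.35 and 10.16 in control cells. Of the other markers on this list Pxn, Hml and Ppn fell, by 1.03, 0.58 and 0.47 on the log2 scale, and NimC1, eater, crq, Sr-CI and PPO1 lay in the background range in both groups. The neuronal marker elav was at 4.12 in Myb knock-down and 3.99 in control cells, and the muscle actin gene Act88F at 4.32 in Myb knock-down and 4.34 in control cells, both in the background range. Above that range in both groups were 2 of 6 neuronal, 1 of 4 muscle, 4 of 4 fat body and 1 of 3 germ line markers. Means of the fat body markers ran from 7.43 to 7.69 in Myb knock-down cells and from 7.38 to 7.65 in control cells. These levels are near that of ush, so a signal above the range does not by itself mark a cell type.

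**Figure D1:**
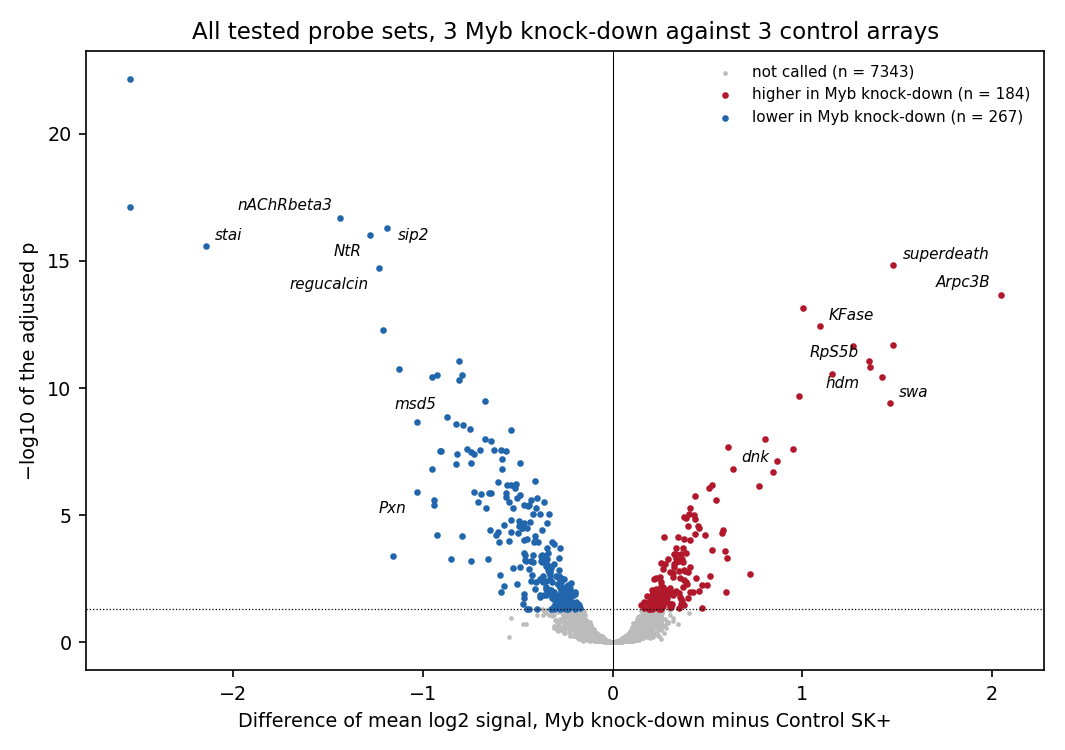
Every tested probe set by the difference of mean log2 signal, Myb knock-down minus Control SK+ (horizontal axis), and by −log10 of limma's adjusted p (vertical axis). The dotted line is the threshold of 0.05. The 184 higher probe sets (red) reach 2.05 and the 267 lower ones (blue) reach -2.55.

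The annotation gave no probe set for Myb itself, so its depletion cannot be checked from these arrays. Of 12 other subunits and partners of the complex on the array, 11 were tested, and 10 of these were not called. E2f2, the repressor E2F, was at 8.61 ± 0.19 in Myb knock-down cells and 8.69 ± 0.16 in control cells (SD, n = 3 each). Among MuvB core genes, mip120 was at 7.99 ± 0.14 in Myb knock-down cells and 7.94 ± 0.21 in control cells (SD, n = 3 each). The level of mip130 was 6.42 ± 0.07 in Myb knock-down cells and 6.26 ± 0.17 in control cells, and that of lin-52 was 7.89 ± 0.11 in Myb knock-down cells and 7.70 ± 0.06 in control cells (SD, n = 3 each). The differences of these 4 genes ran from -0.08 to 0.18. Their standard errors were 0.07 to 0.09, so each estimate had about the same precision. Dp, the DNA-binding partner of E2F proteins, rose by 0.36 (SE 0.10, adjusted p = 0.0192): its arrays were at 8.64, 8.76 and 8.60 in Myb knock-down cells, against 8.48, 8.43 and 8.01 in control cells. The groups did not overlap, but Control replicate 3 was low, and the adjusted p was 0.233 without it and 0.0996 without Myb replicate 2. Without Myb replicate 3, lin-52 and HDAC1 were called higher (adjusted p = 0.0402 for both), and without Control replicate 1 so was mip130 (adjusted p = 0.0376).

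Among the largest falls, several genes were lower on the 3 Myb knock-down arrays than on any of the other 27 arrays of the series. The nicotinic acetylcholine receptor subunit gene nAChRbeta3 was at 8.30, 8.37 and 8.39 in Myb knock-down cells, against 9.81, 9.65 and 9.90 in control cells. That is 37.0% of the control signal (difference -1.43, SE 0.06, adjusted p = 2.11e-17). NtR, which encodes a protein related to neurotransmitter-gated channels, was at 7.55, 7.59 and 7.68 in Myb knock-down cells, against 9.01, 8.87 and 8.78 in control cells (difference -1.28, adjusted p = 9.7e-17). Both genes had 3 tightly grouped values on each side and a gap wider than 1 between the sides. The senescence marker relative regucalcin fell to 8.50 ± 0.07 in Myb knock-down cells, against 9.73 ± 0.02 in control cells (SD, n = 3 each), and sip2, named for its interaction with a septin, fell to 8.44 ± 0.03 in Myb knock-down cells, against 9.63 ± 0.10 in control cells (SD, n = 3 each). The serine protease family gene CG3505 was at 6.93, 7.00 and 7.38 in Myb knock-down cells, and at 8.25, 8.27 and 8.45 in control cells. These 5 genes stood below all other arrays, as did Nazo, at 7.69 ± 0.32 in Myb knock-down cells against 8.63 ± 0.46 in control cells, and the RGS family gene Dhit, at 6.87 ± 0.07 in Myb knock-down cells against 7.80 ± 0.13 in control cells (SD, n = 3 each). The call of Nazo was lost, at an adjusted p of 0.0506, where the 6 arrays were fitted alone.

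Other genes in the group of largest falls were the extracellular peroxidase gene Pxn (-1.03), the neuropeptide-like precursor gene Nplp2 (-0.94), CG2930 (-0.93), CG6912 (-0.91) and the augmin gene msd5 (-0.87). CG2930 was at 8.52, 8.60 and 8.46 in Myb knock-down cells, against 9.51, 9.75 and 9.11 in control cells, so the control arrays spread more than the knock-down arrays. Nplp2 was at 10.98, 10.94 and 10.94 in Myb knock-down cells, against 11.84, 11.87 and 11.97 in control cells. All 12 of the largest falls had groups that did not overlap, as the rule that chose them requires.

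The next 3 probe sets fell outside the rule for the largest falls and were picked out after their values were seen. The stathmin gene stai, which encodes a protein that binds tubulin and destabilises microtubules, was at 4.63, 4.75 and 4.94 in Myb knock-down cells, against 7.09, 7.01 and 6.66 in control cells. The Myb knock-down values lie within the background range, so the difference of -2.14 (SE 0.10, adjusted p = 2.69e-16) may understate the fall. A second stai probe set gave -2.55. Nnf1a, a kinetochore gene, fell to 7.08 ± 0.22 in Myb knock-down cells, against 7.91 ± 0.11 in control cells (SD, n = 3 each; difference -0.83, adjusted p = 2.49e-09). A probe set with no gene name in the annotation used here had the smallest p of all. It was at 6.94, 6.79 and 6.84 in Myb knock-down cells, against 9.50, 9.46 and 9.24 in control cells (difference -2.55, SE 0.07, adjusted p = 7.22e-23). On the 27 arrays outside the Myb knock-down it ran from 9.22 to 9.94, so the 3 Myb knock-down arrays stood apart from every other group of the series.

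The largest rise was that of Arpc3B, a paralog of the Arp2/3 complex subunit gene Arpc3A. Its 3 arrays ran from 8.47 to 9.01 in Myb knock-down cells, with a mean of 8.83 ± 0.31, against 6.92, 6.88 and 6.55 in control cells, with a mean of 6.78 ± 0.20 (SD, n = 3 each), which is 413% of the control signal (difference 2.05, SE 0.12, adjusted p = 2.19e-14). RpS5b, a paralog of the ribosomal protein gene RpS5a used mainly in the ovary, was at 9.85, 9.88 and 9.73 in Myb knock-down cells, against 8.39, 8.31 and 8.71 in control cells (difference 1.35, adjusted p = 8.57e-12). The lowest Myb knock-down value of each gene stood at least 1 above the highest control value. CG34355 rose by 1.27, and by 1.42 on its second probe set. The kynurenine formamidase gene KFase, of tryptophan breakdown, was at 8.55 ± 0.12 in Myb knock-down cells and 7.45 ± 0.02 in control cells (SD, n = 3 each; difference 1.09). Asph, which encodes an aspartyl beta-hydroxylase, rose by 0.85, ChLD3 by 0.77 and the sialic acid synthase gene NANS by 0.53.

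The deoxyribonucleoside kinase gene dnk, which salvages nucleosides for DNA synthesis, was at 10.10, 10.02 and 9.95 in Myb knock-down cells, against 9.37, 9.45 and 9.35 in control cells (difference 0.63, SE 0.07, adjusted p = 1.47e-07). Its 3 Myb knock-down values were above those of all 27 other arrays, the highest of which was 9.94. The remaining largest rises were those of CG11825 (0.60), CG6927 (0.58), CAP (0.49) and CG1910 (0.46). Other probe sets of CAP gave 0.24 and 0.02, and the other of CG1910 gave -0.02, so for these 2 genes the rise depends on the probe set. A further 4 rises were picked out after their values were seen, since neither group's mean passed 7.46, the median tested value: superdeath (1.48), CG13148 (1.48), CG31100 (1.16) and Rhp (1.00). The rhophilin gene Rhp, for example, was at 7.07, 7.00 and 6.94 in Myb knock-down cells and 5.97, 6.02 and 6.01 in control cells. The control values of Rhp lie inside the background range and below the array medians, so it passed the filter only through knock-down arrays.

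Mitosis genes were read in 6 lists, by 1 probe set per gene. All lists in this report were chosen with earlier results of these data known, so their shares of calls are no independent test. Of 6392 genes tested this way, 371 were called (5.8%), of which 224 fell (3.5%) and 147 rose (2.3%). Of 121 mitosis genes on the array, 92 passed the filter on low values, and 21 of these fell (22.8%) while 1 rose (1.09%). The median difference over the 92 was -0.05, beside 0.01 over all tested genes, and 57 of the 92 lay below 0. The lists differed in this. Below 0 were 20 of 26 spindle genes, 7 of 9 mitotic entry genes and 9 of 14 in each of the checkpoint and cytokinesis lists. In the centrosome list 6 of 12 genes lay below 0, and in the condensin list 7 of 18. Of the 21 falls, 16 were still called whichever array was left out, and 5 (Mps1, nod, msps, dgt2 and barr) were lost without some array.

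Entry into mitosis is driven by Cdk1 with its cyclins and by the Greatwall kinase, which holds back the phosphatase that opposes Cdk1. Of 9 tested genes of this list 4 fell and none rose. Cks30A, the small subunit that binds Cdk1, was at 6.63, 6.83 and 6.79 in Myb knock-down cells, against 7.56, 7.62 and 7.32 in control cells (difference -0.75, SE 0.08, adjusted p = 3.2e-08). CycB, the cyclin of the mitotic kinase, was at 8.73, 8.69 and 8.71 in Myb knock-down cells, against 8.99 to 9.15 on the 3 control arrays (difference -0.34, adjusted p = 9.33e-06). The groups of both genes did not overlap, and the 3 CycB values after knock-down lay within 0.04 of each other. The Greatwall gene gwl fell by 0.41 on the log2 scale, to 7.49 ± 0.04 in Myb knock-down cells, against 7.90 ± 0.10 in control cells (SD, n = 3 each). The Aurora B kinase gene aurB, which is also on the cytokinesis list, was at 6.48, 6.43 and 6.06 in Myb knock-down cells, against 7.00, 7.01 and 6.67 in control cells (difference -0.57, adjusted p = 2.34e-05). Its Myb knock-down mean of 6.32 is next to the top of the background range.

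Of 14 tested genes of the spindle checkpoint and the anaphase promoting complex, only mad2 and Mps1 fell. The checkpoint gene mad2 was at 8.54, 8.56 and 8.31 in Myb knock-down cells, against 8.90, 8.95 and 8.81 in control cells (difference -0.42, adjusted p = 0.000356). The checkpoint kinase gene Mps1 fell by 0.28 on the log2 scale (adjusted p = 0.00642), with values of 7.54, 7.35 and 7.63 in Myb knock-down cells, against 7.76, 7.82 and 7.76 in control cells. The medians of this list, -0.04, and of all genes, 0.01, differed little.

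The list of mitotic kinesins and spindle genes held the most falls, 10 of 26 tested, with no rise and a median of -0.16. Spindle assembly uses motors that slide, cap or depolymerise microtubules, and augmin, a complex that seeds new microtubules on existing ones. Klp61F, the kinesin-5 motor that pushes spindle poles apart, was at 9.06 ± 0.05 in Myb knock-down cells, with none above 9.09, against 9.65 ± 0.14 in control cells, with none below 9.50 (SD, n = 3 each; difference -0.59, SE 0.06, adjusted p = 2.71e-08). Klp10A, a kinesin-13 that depolymerises microtubules, was at 7.68, 7.58 and 7.79 in Myb knock-down cells, against 8.27, 8.28 and 8.19 in control cells (difference -0.56, SE 0.06, adjusted p = 2.96e-08). Neither gene overlapped between groups, and for Klp10A, as for Cks30A, the 3 Myb knock-down arrays were below all 27 others. The kinesin-8 gene Klp67A was at 6.88 ± 0.01 in Myb knock-down cells, against 7.36 ± 0.11 in control cells (SD, n = 3 each; difference -0.48).

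Augmin was represented by 5 called genes. Its subunit gene msd5 was at 8.00, 8.08 and 7.68 in Myb knock-down cells and 8.81, 8.99 and 8.59 in control cells, 54.5% of the control signal (difference -0.87, adjusted p = 1.44e-09). The msd1 gene was at 8.79, 8.77 and 8.31 in Myb knock-down cells, against 9.36, 9.39 and 9.12 in control cells (difference -0.67, adjusted p = 5.16e-06). The msd1 and msd5 genes overlap in the reference annotation, so their 2 values may not be independent. The falls of dgt3 (-0.35), dgt2 (-0.33) and dgt6 (-0.29) were smaller, and that of dgt2 was lost without some array. The microtubule polymerase gene msps (-0.33, adjusted p = 0.0123) and the chromokinesin gene nod (-0.23, adjusted p = 0.0162) completed the list's falls.

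Cytokinesis genes fell in 4 of 14 cases, aurB among them, and all 4 calls held whichever array was left out. The tum gene, whose RacGAP protein forms centralspindlin with a kinesin at the spindle midzone, was at 9.18, 9.06 and 8.94 in Myb knock-down cells, against 9.73, 9.83 and 9.49 in control cells (difference -0.63, SE 0.07, adjusted p = 2.71e-08). Anillin, encoded by scra, is a scaffold of the contractile ring, and its gene was at 8.52 ± 0.10 in Myb knock-down cells, against 9.03 ± 0.09 in control cells (SD, n = 3 each; difference -0.51). The midzone microtubule bundler feo, a PRC1 relative, was at 8.39, 8.38 and 8.37 in Myb knock-down cells, against 8.97, 8.89 and 8.68 in control cells (difference -0.47, adjusted p = 3.86e-06). In all 3 genes the highest Myb knock-down value was below the lowest control value.

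Of 18 tested genes of condensin, cohesin and the centromere, 2 fell and 1 rose. The kinetochore gene Kmn1 was at 6.73, 6.62 and 6.39 in Myb knock-down cells, against 7.40, 7.22 and 7.08 in control cells (difference -0.65, adjusted p = 1.29e-06). The condensin gene barr fell by 0.24 on the log2 scale (adjusted p = 0.0341), with groups that overlapped, and the condensin II gene Cap-D3 rose by 0.32 (adjusted p = 0.0143), with means of 6.49 in Myb knock-down cells and 6.17 in control cells, next to or in the background range. Both of these calls were lost without some array. None of 12 tested centrosome and centriole genes was called by limma, and their differences ran from -0.14 to 0.09. Of these 1 had an unadjusted p under 0.05, beside 1151 of all 7794 tested probe sets.

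**Figure D2:**
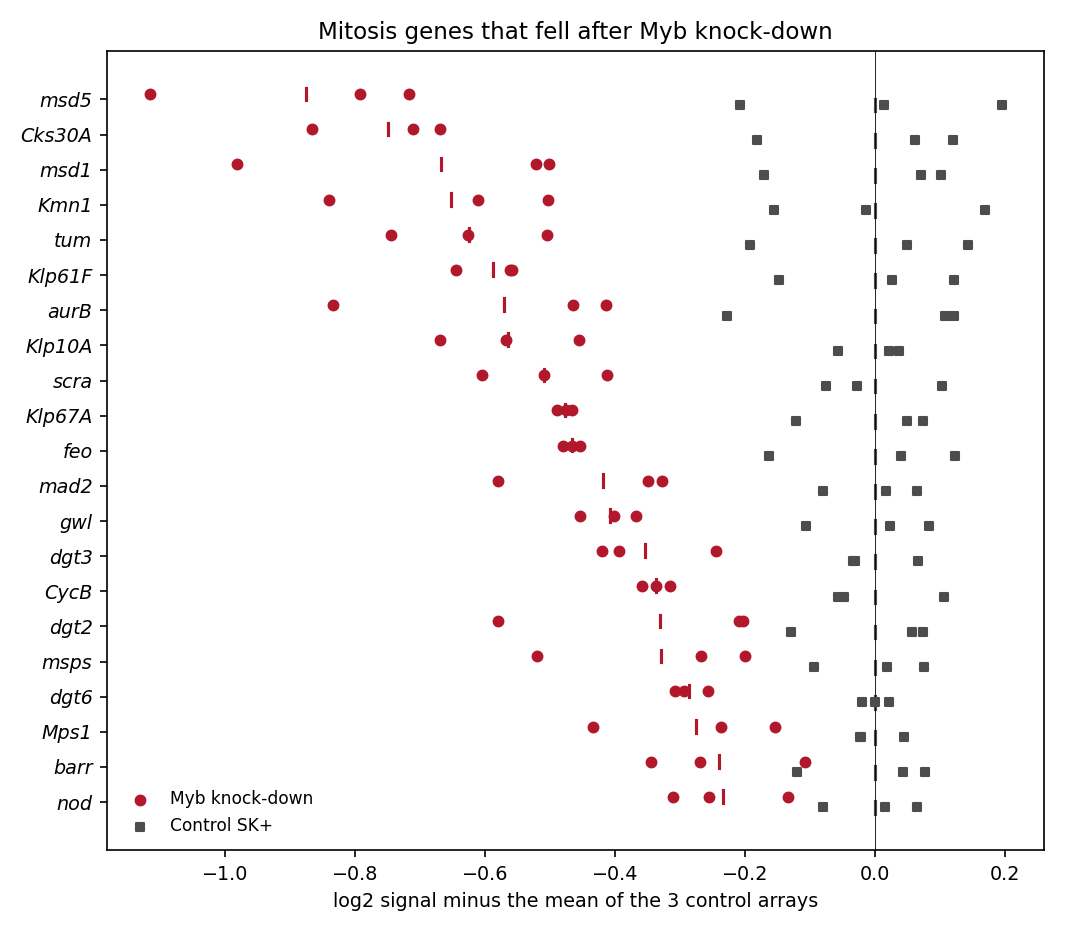
The 21 mitosis genes that fell, each array's log2 signal minus the mean of the 3 control arrays (horizontal axis). Red circles are the 3 Myb knock-down arrays, grey squares the 3 Control SK+ arrays, and short bars their means. The groups stand apart in 20 of the genes, and overlap in barr. The genes were chosen by their calls, which favour separated groups. Of all 92 tested mitosis genes, 32 had groups that did not overlap. The share of such genes among all tested genes was not counted, so nothing is read from this number.

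DNA replication and G1 to S phase genes shifted the other way. All 49 on the array passed the filter, 18 rose (36.7%, beside 2.3% of all genes) and 1 fell. The median difference was 0.18, beside 0.01 over all tested genes, and 44 of the 49 were above 0. The single changes were small: among the 14 replication genes that rose they ran from 0.18 to 0.41. The number of rises depended on single arrays. It was 8 without Control replicate 3, 10 without Myb replicate 2, 12 without Myb replicate 1 and 22 without Myb replicate 3, and 4 where the 6 arrays were fitted alone. The 7 genes called whichever array was left out were dpa, dup, Cdc45, PCNA, Ts, Caf1-180 and Cdk2.

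Replication origins are licensed by loading of the MCM helicase, which Cdt1 carries out, and fired by adding Cdc45 and the GINS complex. The Cdt1 gene dup was at 8.04, 7.91 and 8.23 in Myb knock-down cells, against 7.65, 7.57 and 7.75 in control cells (difference 0.41, SE 0.08, adjusted p = 0.00109). The MCM subunit gene dpa was at 10.08, 10.19 and 9.91 in Myb knock-down cells, against 9.77, 9.74 and 9.66 in control cells (difference 0.33, adjusted p = 0.000188). The Cdc45 gene was at 8.21, 8.26 and 8.28 in Myb knock-down cells, against 7.92, 7.92 and 7.93 in control cells (difference 0.33, adjusted p = 0.00034). These 3 genes were separated between groups, and Cdc45 was higher on the Myb knock-down arrays than on all 27 others. Mcm2 and Mcm6 rose by 0.26 each. The exception was the GINS gene Psf2, which was at 6.94, 6.95 and 6.71 in Myb knock-down cells, against 7.37, 7.26 and 7.20 in control cells, and fell by 0.41 on the log2 scale (adjusted p = 0.000106).

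At the replication fork, the sliding clamp gene PCNA was at 11.08, 11.03 and 10.82 in Myb knock-down cells, against 10.61, 10.78 and 10.53 in control cells (difference 0.34, SE 0.07, adjusted p = 0.000704). Caf1-180, a subunit of the chromatin assembly factor that follows the fork, was at 8.85, 8.87 and 8.94 in Myb knock-down cells, against 8.53, 8.57 and 8.40 in control cells (difference 0.39, SE 0.06, adjusted p = 1.33e-05). Polymerase and primase genes rose less, with PolA1 at 0.18, PolE1 at 0.21 and Prim2 at 0.23. Of the genes that supply nucleotides, the thymidylate synthase gene Ts rose by 0.28 (adjusted p = 0.000802) and dUTPase by 0.27 (adjusted p = 0.0363). Myb replicate 3 of dUTPase, at 9.66, lay level with Control replicate 2, at 9.66, and below Control replicate 1, at 9.70. The histone chaperone gene asf1 rose by 0.28 and the single-strand binding protein gene RPA3 by 0.25 (adjusted p = 0.0117 and 0.049).

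Of 9 tested cyclins, kinases and inhibitors of G1 and S phase, 4 rose: CycE, Cdk2, Dp and CycJ. CycE, the cyclin that starts S phase, was at 6.86, 7.04 and 7.33 in Myb knock-down cells, against 6.57, 6.62 and 6.25 in control cells (difference 0.60, SE 0.15, adjusted p = 0.0103). Its call was lost without Control replicate 3 (adjusted p = 0.079) or Myb replicate 3 (adjusted p = 0.0841). Its kinase partner Cdk2 was at 8.80, 8.96 and 8.79 in Myb knock-down cells, against 8.59, 8.64 and 8.35 in control cells (difference 0.32, adjusted p = 0.00112). Cdk2 stood above all 27 other arrays of the series and kept its call whichever array was left out. The replicate numbers were taken to pair the arrays, which rests on correlations between them. With the numbers as a block the calls of Mcm2 (adjusted p = 0.0523), RPA3 (0.0652) and CycJ (0.0595) were lost in the fit to 30 arrays. That of PolA1 (0.0718) was lost in the fit to 6.

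**Figure D3:**
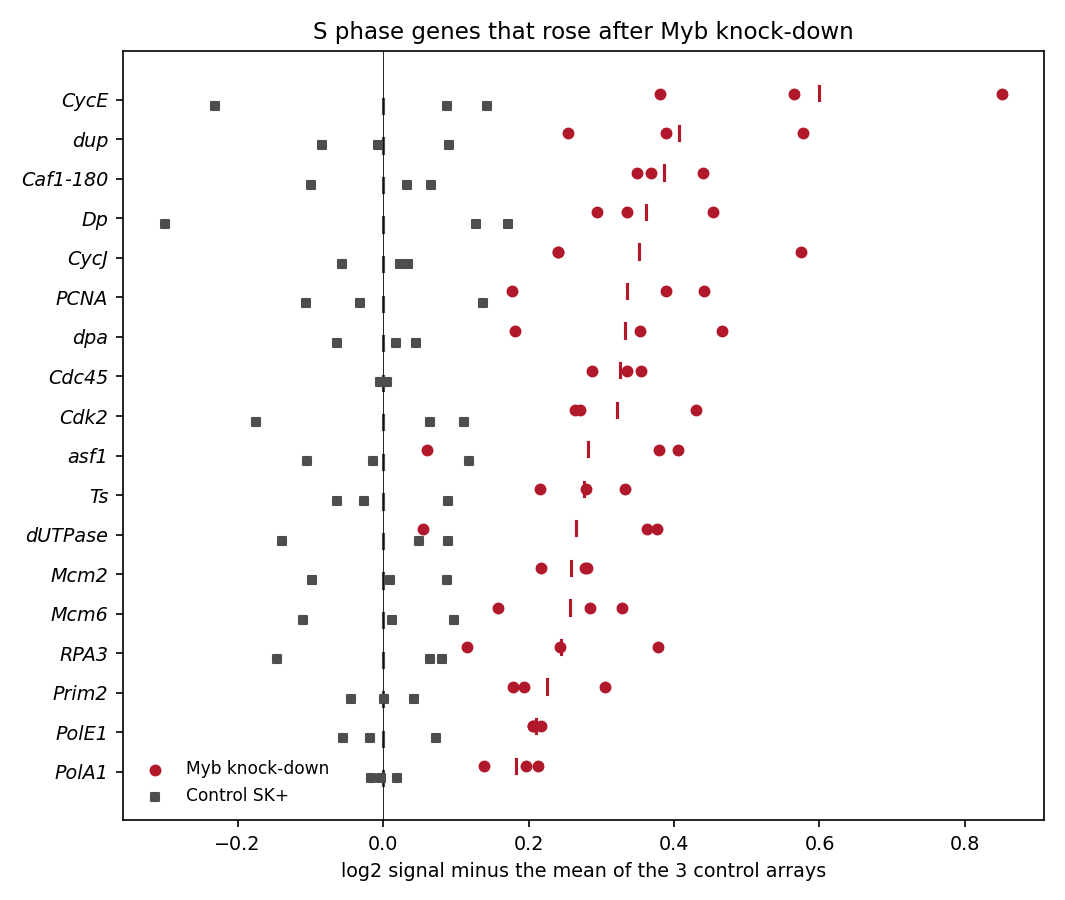
The 18 S phase genes that rose, each array's log2 signal minus the mean of the 3 control arrays (horizontal axis). Red circles are the 3 Myb knock-down arrays, grey squares the 3 Control SK+ arrays, and short bars their means. The shifts of the means run from 0.18 (PolA1) to 0.60 (CycE), and the groups overlap in asf1 and dUTPase.

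Kc cells make basement membrane and hemocyte proteins, and part of these fell. Of 17 tested hemocyte genes 5 fell and 1 rose, and of 14 matrix genes 4 fell and none rose, with Pxn, Glt and Ppn counted in both. Over all genes 3.5% fell and 2.3% rose. Pxn, which encodes the matrix peroxidase peroxidasin, was at 9.01, 9.11 and 8.68 in Myb knock-down cells, against 10.21, 10.03 and 9.65 in control cells (difference -1.03, SE 0.13, adjusted p = 1.25e-06). Hml, encoding the clotting protein hemolectin, was at 10.68, 10.65 and 10.76 in Myb knock-down cells, against 11.28, 11.30 and 11.25 in control cells (difference -0.58, adjusted p = 1.54e-07). In both genes every Myb knock-down array was below every control array. The glutactin gene Glt fell to 7.58 ± 0.35 in Myb knock-down cells, against 8.43 ± 0.17 in control cells, and the integrin ligand gene Tig to 7.87 ± 0.03 in Myb knock-down cells, against 8.52 ± 0.11 in control cells (SD, n = 3 each; differences -0.85 and -0.65). NimB5 fell by 0.59 on the log2 scale, and the papilin gene Ppn by 0.47 (adjusted p = 0.0319), a call lost without 4 of the arrays in turn and after median centring. The engulfment receptor gene drpr, picked out after its value was seen, rose by 0.37.

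The type IV collagen genes, which form the core of the basement membrane, were not among the calls. Col4a1 was at 9.22, 9.29 and 9.14 in Myb knock-down cells and 9.32, 9.22 and 9.04 in control cells (difference 0.02, SE 0.07, adjusted p = 0.948). The other chain, vkg, was at 8.84, 8.87 and 8.78 in Myb knock-down cells, against 8.93, 8.84 and 8.61 in control cells (difference 0.04, SE 0.07, adjusted p = 0.91). The summed linear signal of the 13 hemocyte markers, on the log2 scale, was 12.43, 12.51 and 12.36 in Myb knock-down cells, against 12.95, 12.97 and 12.73 in control cells. From bulk arrays, fewer cells expressing a marker and less RNA per cell cannot be told apart, and the part of the markers in other results was not tested.

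Among 22 tested genes of the germ line and the piRNA pathway, 2 rose and 2 fell, and of 9 meiosis and testis genes 2 rose, beside 2.3% of all genes that rose and 3.5% that fell. The meiotic recombination gene hdm was at 7.37, 7.38 and 7.24 in Myb knock-down cells, against 5.95, 6.03 and 5.94 in control cells (difference 1.36, SE 0.10, adjusted p = 1.49e-11). The swa gene, needed to place bicoid mRNA in the oocyte, was at 6.91, 6.95 and 6.53 in Myb knock-down cells. It was at 5.55, 5.39 and 5.06 in control cells (difference 1.46, SE 0.13, adjusted p = 4.04e-10). A second swa probe set, left out by the filter, differed by only 0.34, with means of 5.23 in Myb knock-down and 4.89 in control cells. Control values of hdm and swa lie in the background range, so both rises may be understated on this scale. They also lie below the array medians. Both genes therefore passed the filter only through knock-down arrays, and the filter favoured such rises. The piRNA genes squ and spn-E fell by 0.81 and 0.54 on the log2 scale, and cuff rose by 0.39, all with at least one group mean in the background range. The synaptonemal complex gene cona rose by 0.33. The germ line helicase gene vas was at 4.83, 4.60 and 4.81 in Myb knock-down cells and 4.85, 4.59 and 4.80 in control cells, and was not called.

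Several paralogs of housekeeping genes, which are used in particular tissues such as ovary or testis, were among the calls. Of 11 tested paralogs 2 rose, Arpc3B and RpS5b, and 3 fell, beside 5.8% of all genes called. This list was chosen with earlier results of these data known, so its share of calls is not independent of them. ATPsynepsilonL, a paralog of an ATP synthase subunit gene, was at 7.82, 7.70 and 7.69 in Myb knock-down cells, against 8.59, 8.73 and 8.26 in control cells (difference -0.79, adjusted p = 2.85e-09). RpS19b, a ribosomal protein paralog, fell to 7.74 ± 0.20 in Myb knock-down cells, against 8.45 ± 0.16 in control cells (SD, n = 3 each), and the proteasome paralog Rpt3R, picked out after its value was seen, fell by 0.60. RpS5b and RpS19b were the only calls among 34 cytosolic ribosomal protein genes. Of 53 oxidative phosphorylation genes 1 was called, ND-15 (-0.43), and of 64 mitochondrial ribosomal protein genes mRpS34 fell (-0.38) and mRpS31 rose (0.26). The mRpS31 call was lost with the replicate block (adjusted p = 0.06) and under 9 of 14 alternatives in all, and the mRpS34 call under 3, without Control replicate 2, without Myb replicate 3 and with the 6 arrays alone.

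The other lists had few or no calls. There were none among 26 constitutive proteasome, 44 translation and 20 heat shock and oxidative stress genes, nor in the Hippo, insulin and TOR, ecdysone, muscle and fat body lists. With the centrosome list these hold 138 tested genes, of which limma gave 17 an unadjusted p under 0.05, beside 1151 of all 7794 tested probe sets. Of 18 DNA damage genes only the mismatch repair gene Msh6 rose (0.25), and of 14 apoptosis and JNK genes only the TNF gene egr did (0.31), which lost its call with the replicate block (adjusted p = 0.0528). The glycolysis enzyme gene Pfk rose by 0.40 (adjusted p = 8.73e-06). Single calls were also made for phol (0.23) among Polycomb and trithorax genes, blanks (0.26) among RNA interference genes, LysX (-0.32) among immune genes and Idgf6 (-0.30) among Idgf growth factors. Idgf6 lost its call under 10 of 14 alternatives, median centring and each single array left out among them, phol lost it under 4 of 14 and LysX under 4 of 13. Both LysX means, 5.80 in Myb knock-down and 6.12 in control cells, lie in the background range.

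**Figure D4:**
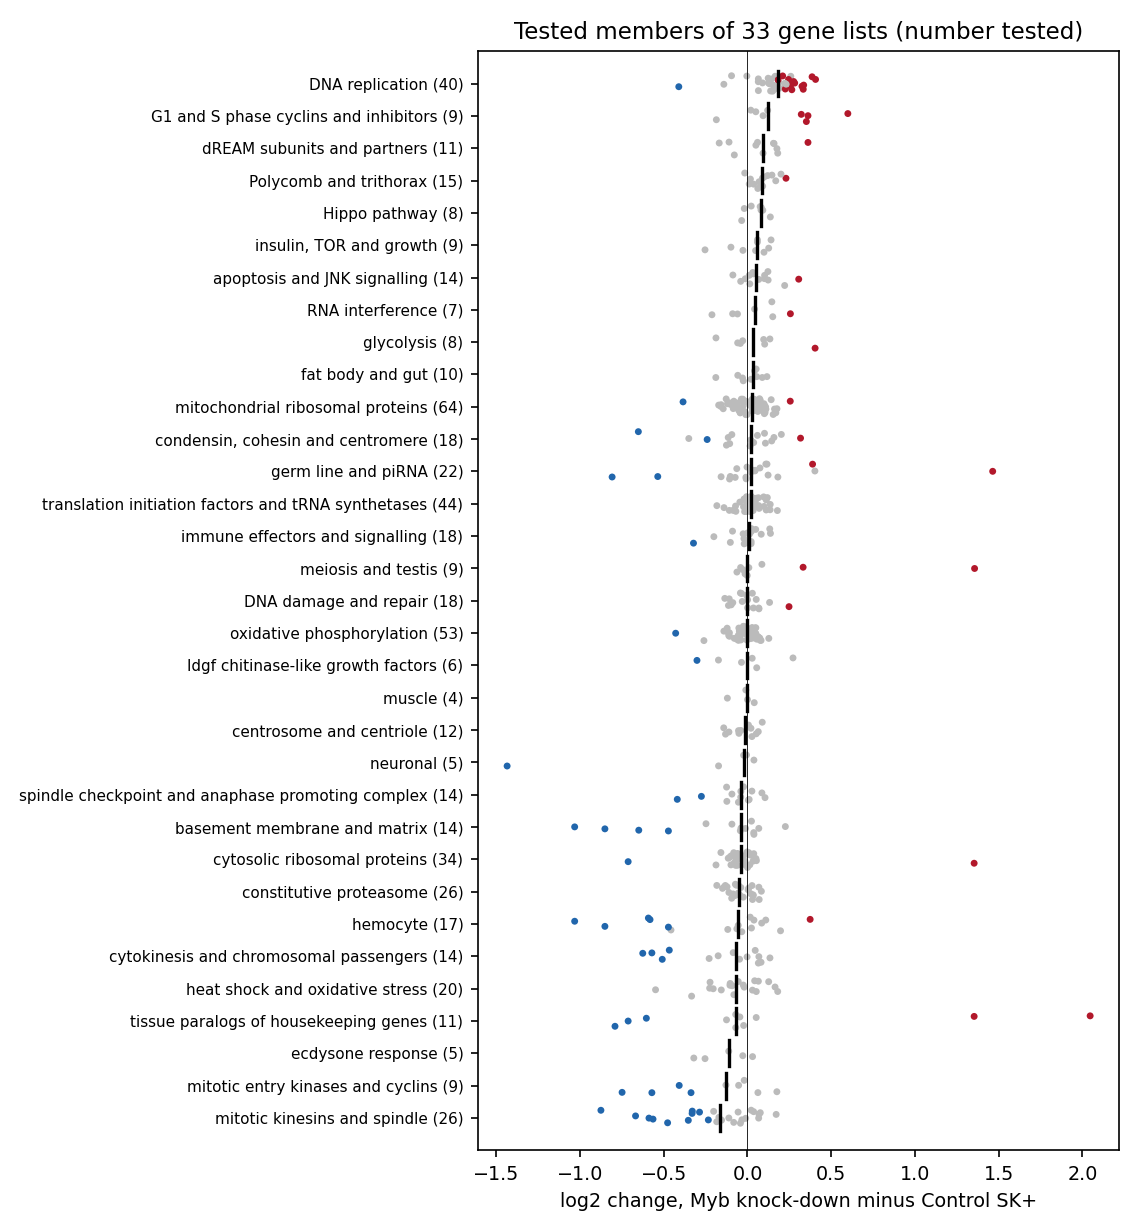
The tested members of 33 gene lists by their log2 difference, Myb knock-down minus Control SK+ (horizontal axis), in order of the lists' medians (black bars). Red points were called higher, blue points lower and grey points were not called; vertical scatter within a list has no meaning. DNA replication has the highest median and mitotic kinesins and spindle the lowest.

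The calls were spread over the chromosomes, with 5.08% of tested genes called on X, 6.91% on 2L, 6.23% on 2R, 4.15% on 3L and 6.61% on 3R. Of 3437 pairs of neighbouring genes with both tested, 25 had both called, where 371 of 6392 single genes were called. The number of such pairs among genes placed at random was not computed, so nothing is read from this count. In 17 of the 25 pairs the neighbours changed in the same direction. They include msd1 with msd5, which overlap, the membrane targeting receptor gene SrpRalpha with Klp10A, tum with Uba3, and CG1620 with dpa. The neighbours nAChRbeta3 and rempA changed in opposite directions (-1.43 and 0.37). Of the 25 pairs, cuff with ERp60, Pgant9 with Idgf6, px with gas, btz with CROT and dah with CG9114 also overlap.

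To see where the Myb knock-down differed from depletion of other subunits, its arrays were set directly against those of the Mip130, Lin-52 and E2F2 knock-downs, with no control array in these contrasts. Against Mip130, a MuvB core protein, 970 probe sets were called (12.4%), 525 higher (6.74%) and 445 lower (5.71%) in the Myb knock-down. Against Lin-52, another core protein, 1338 were called (17.2%), 736 higher (9.44%) and 602 lower (7.72%), a total that was 372 with the replicate block in the fit to 6 arrays, 823 without Myb replicate 1, 871 without Myb replicate 2 and 891 without Lin-52 replicate 2. Against E2F2 the count was 2522 (32.4%), 1083 higher (13.9%) and 1439 lower (18.5%). Read by 1 probe set per gene, 6.77% of genes were higher and 5.87% lower in the Myb than in the Mip130 knock-down (12.6% called), 9.59% and 7.65% than in the Lin-52 knock-down (17.2%), and 13.7% and 18.3% than in the E2F2 knock-down (32.0%).

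Of 26 tested spindle genes 1 was higher and 4 were lower in the Myb than in the Mip130 knock-down, and of 14 cytokinesis genes 1 was higher, beside 12.6% of all genes called. The 4 lower spindle genes include msd5 (-0.30, adjusted p = 0.00917), dgt6 (-0.26, adjusted p = 0.00621) and nod (-0.26, adjusted p = 0.00374). The msd5 call was lost under 4 of 14 alternatives, among them without Mip130 replicate 2 (adjusted p = 0.0559) and without Myb replicate 3 (adjusted p = 0.094). The direct differences, Myb minus Mip130, were -0.03 for Klp61F, -0.02 for tum, 0.08 for scra and -0.01 for feo, none of them called, with adjusted p from 0.479 to 0.962. Of the 92 tested mitosis genes 7 were higher and 8 lower in the Myb knock-down than in the Mip130 knock-down, 5 higher and 9 lower than in the Lin-52 knock-down, and 4 higher and 37 lower than in the E2F2 knock-down. Cks30A and Klp10A were lower in Myb knock-down cells than in each of the others, with differences of -0.72 and -0.32 from Mip130 (adjusted p = 3.7e-08 and 0.000213). Mean Cks30A signal was 6.75 in the Myb knock-down, against 7.47 in Mip130, 7.50 in Lin-52 and 8.10 in E2F2 knock-down cells.

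More S phase genes were higher than lower in the Myb knock-down in each of the 3 direct contrasts, with 15 higher and 2 lower of 49 against Mip130, 12 and 1 against Lin-52, and 23 and 4 against E2F2. PCNA exceeded the Mip130 knock-down by 0.39 (adjusted p = 5.65e-05), Cdc45 by 0.30 (adjusted p = 0.000444), dup by 0.33 (adjusted p = 0.00486) and CycE by 0.86 (adjusted p = 8.54e-05). The direct difference of CycE from Lin-52 was 0.17 and was not called (adjusted p = 0.491). After knock-down of E2F1, the activator E2F, the differences from the shared control of the 18 genes that rose after Myb knock-down ran from -1.86 for Mcm2 to -0.15 for Dp, which was not called there (adjusted p = 0.21). They were -1.80 for PCNA, -1.65 for dup, -1.65 for Cdk2, -1.50 for dUTPase, -0.84 for Cdc45 and -0.42 for CycE. Both sets of differences use the same 3 control arrays. Against that control, the medians of the mitosis lists were also below 0 after E2F1 knock-down, from -0.57 to -0.29. The median of the DNA replication list was 0.27 after L(3)MBT knock-down and 0.19 after Myb knock-down, so higher replication signal was not particular to the Myb knock-down.

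The largest direct differences with lower signal in the Myb knock-down included those of vas, CG5250, CG5592 and Pxt. Of these, vas, CG5250 and CG5592 were below the median of every Myb knock-down and control array, and passed the filter only through other knock-downs. Their control means were 4.749, 5.555 and 4.770, and none was called against the control. Their direct differences are therefore not falls after Myb knock-down, and the filter favoured such differences. Mean vas signal was 4.75 in the Myb knock-down, against 7.54 in the Mip130, 6.30 in the Lin-52 and 7.72 in the E2F2 knock-down (direct differences -2.80, -1.55 and -2.98, adjusted p = 3.1e-17, 1.04e-10 and 4.34e-18). CG5250 was at 5.58 in the Myb knock-down, with direct differences of -2.73 from the Mip130 and -2.71 from the E2F2 knock-down, and of -0.32 from the Lin-52 knock-down (adjusted p = 0.0439), a call lost under 8 of 14 alternatives. The cyclooxygenase-like gene Pxt was lower than in the Mip130 knock-down (difference -3.40, adjusted p = 2.87e-20), and differed by -0.71 from the Lin-52 and -0.67 from the E2F2 knock-down. CG5592 was at 4.63 in the Myb knock-down, with differences of -3.47 from the Mip130 (adjusted p = 7.03e-24), -0.50 from the Lin-52 and -2.68 from the E2F2 knock-down. The Myb knock-down means of vas, CG5250 and CG5592 lie in the background range, and the Lin-52 knock-down mean of vas is next to its upper end, so these differences may be understated. Pxt also fell against the control (-0.51, adjusted p = 0.00515), a call lost without Control replicate 3 (adjusted p = 0.0797), without Myb replicate 2 (adjusted p = 0.0679) and with the 6 arrays alone (adjusted p = 0.176). CG5592 did not pass that test. NtR was lower than in the Mip130 and Lin-52 knock-downs (differences -1.97 and -1.82). CG5080, CG7997 and yellow-f2 were lower than in the Lin-52 knock-down (differences -1.69, -1.61 and -1.27).

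In the other direction, the collagen genes that were not called against the control were higher than in the core knock-downs. Col4a1 exceeded the Mip130 knock-down by 0.97 and the Lin-52 knock-down by 1.40, and vkg by 1.00 and 1.56 (adjusted p from 5.98e-17 to 2.1e-12). RpS5b exceeded the Mip130 knock-down by 1.08 and the E2F2 knock-down by 2.15. Arpc3B exceeded the E2F2 knock-down by 2.96 (adjusted p = 6.7e-19) but its difference from the Mip130 knock-down was 0.17 and was not called (adjusted p = 0.403). The targeted genes bore out the labels of these groups, since lin-52 was 1.89 higher than in the Lin-52 knock-down, E2f2 2.30 higher than in the E2F2 knock-down and mip130 0.65 higher than in the Mip130 knock-down. Of 48 direct calls of 28 genes that were refitted under the alternatives, 44 were kept in all of them. The others were those of CG5250 and CG5592 against Lin-52, dup against Mip130 and msd5 against Mip130.

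**Figure D5:**
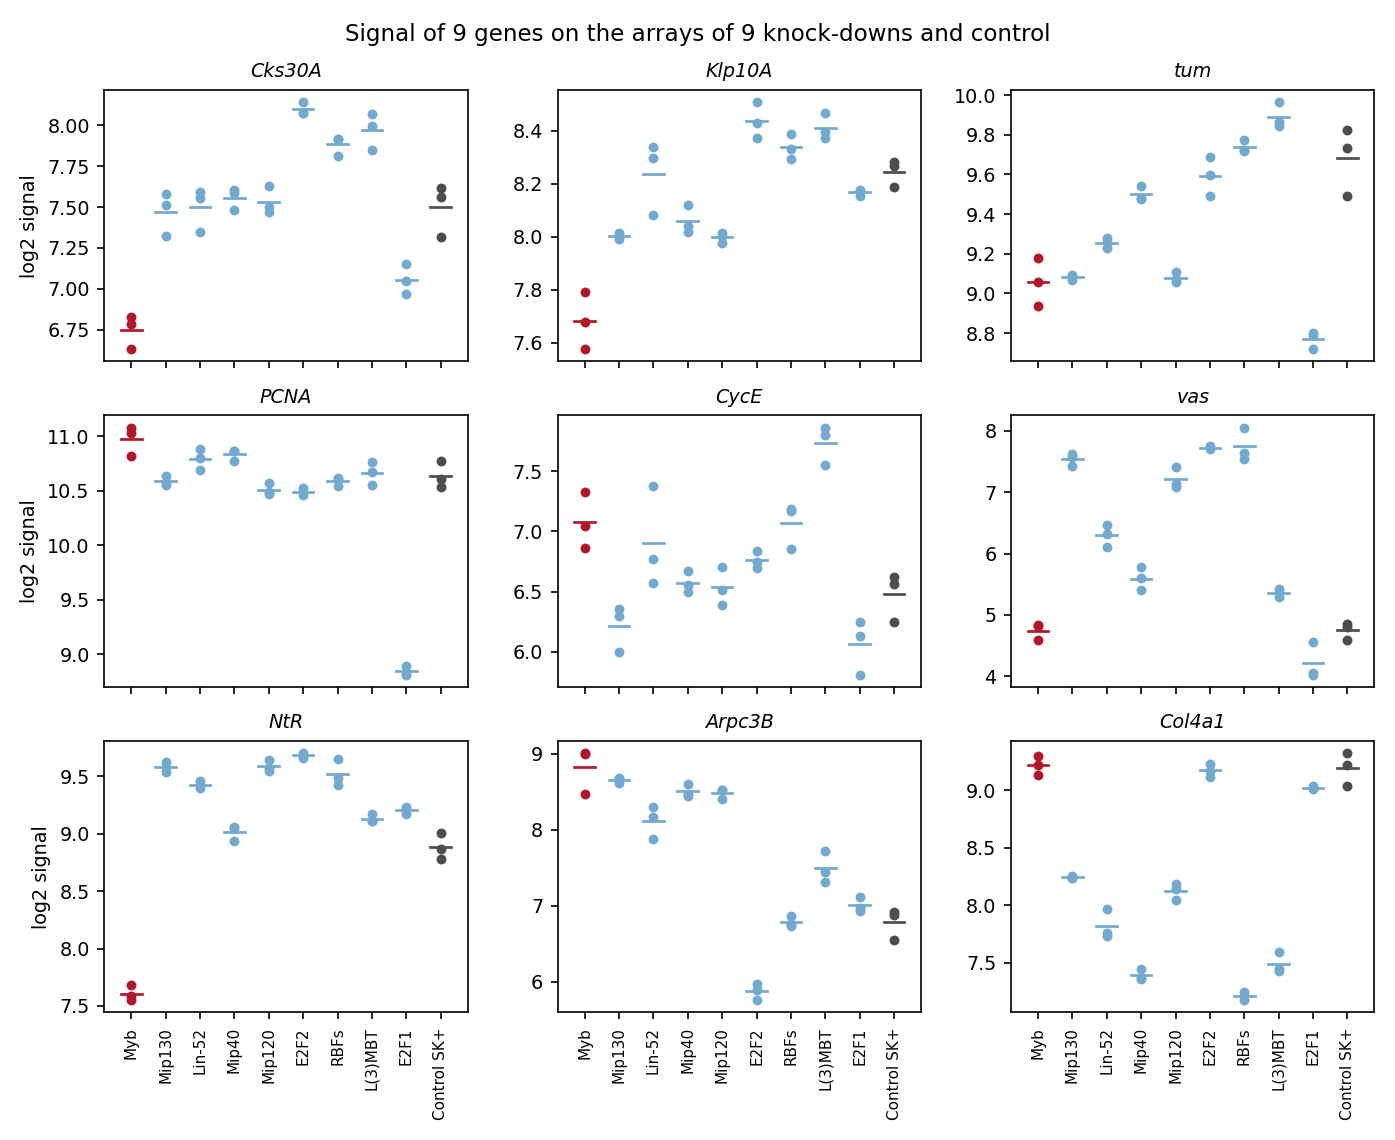
Log2 signal (vertical axes, with a different range in each panel) of 9 genes on the 3 arrays of each of 9 knock-downs and of Control SK+. Points are arrays and bars are means; the Myb knock-down is red, the other knock-downs blue and the control grey. Cks30A, Klp10A and NtR are lowest on the Myb knock-down arrays, and vas is low in the Myb and E2F1 knock-downs and the control.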

How the data were processed

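Biotin-labelled cRNA from Kc cells was measured on Affymetrix fly arrays. The values deposited by the authors run from 1.949 to 13.597 and were read as log2 signal from this range; the log base, summarization and normalization are not given in the sources used here, and only GCOS 1.2.0 is named, per the submitters' processing notes. The values were used as deposited. The annotation paired 12443 probe sets with 1 gene, 327 with several and 1196 with none, and 12394 had their gene in the reference table. A probe set was tested if 3 or more of the 30 arrays had it above the array's median (7794). Genes below the median of every control array could pass through knock-down arrays alone, which favoured rises. Such genes included hdm, swa, cuff, CycJ, Cap-D3 and Rhp. Group means of all 30 arrays were fitted in limma 3.58.1 (R 4.3.3) with an intensity trend and 20 residual degrees of freedom, two-sided, with Benjamini-Hochberg adjustment within each contrast and a threshold of 0.05. The script was tested on simulated data. Python 3.11.15, pandas 2.3.3 and matplotlib 3.10.9 made tables and figures.

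The 33 gene lists used 1 probe set per gene, the one with the highest mean. Of the list symbols 8 matched no single gene in the reference table, and many other listed genes had no probe set. Of 93 listed cytosolic ribosomal protein genes, for example, 37 were on the array. Members and lists were chosen with earlier results of these data known. Named genes were the complex's subunits, the 12 largest called rises and falls with separated groups and a higher group mean above 7.46 (the median tested value), the called mitosis and replication genes, up to 4 called members of other lists, and, for each direct contrast, the 4 probe sets farthest up and down. Same-numbered Myb and Control arrays deviated together from their group means (correlations 0.21, 0.401 and 0.58), so the numbers were taken to pair the arrays. Myb replicate 1 correlated about equally with Control replicate 2 (0.213), and Myb replicate 2 with Control replicate 1 (0.393), so the pairing is uncertain. The main fit did not use it. Alternatives were quantile normalization, median centring, other filters, no trend, a replicate block, the 6 arrays alone and leaving out each array.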

Additional observations from a re-analysis of the deposited data

Results flagged for a closer look

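The filter on low values left out 6172 probe sets. Without it, 54 of these were called by limma between Myb knock-down and control, 27 higher and 27 lower, and 12 with 1 gene each and the larger differences are given here because they lie outside the tested set. Most of their means lie in the background range, and no cause was tested. The mitosis genes cmet, a CENP-E kinesin, and pim, the fly securin, differed by -0.83 and -0.57. The cmet arrays were at 5.13, 5.04 and 5.04 in Myb knock-down cells, against 5.90, 6.06 and 5.74 in control cells. The pim arrays were at 5.21, 5.23 and 4.99 in Myb knock-down cells, against 5.79, 5.73 and 5.62 in control cells. Also lower were CG18765 (-0.86), rau (-0.66) and CG42254 (-0.62). The meiotic gene narya was higher by 1.62, CG4318 by 0.91, CG17625 by 0.65, CG1571 by 0.62, the polarity gene crb by 0.61, CG12698 by 0.61 and CG33521 by 0.51. Groups of 3 arrays are too small for a test of single outlying arrays.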

How the results depend on the processing

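Fitting the 6 arrays alone reduced the calls against the control to 200 (62 higher, 138 lower), of which 196 were among the 451. It reduced the S phase rises to 4 and the calls against Lin-52 to 389. Those against Lin-52 were 372 with the replicate block on 6 arrays. Leaving out each array gave 343 to 428 calls against the control, 823 to 1759 against Lin-52 and 8 to 22 S phase rises. Other settings gave 397 (median centring) to 543 (replicate block, 6 arrays) calls against the control. The falls among mitosis genes ran from 16 to 23. Of 98 named genes called against the control, 61 kept their call under all alternatives. The call was lost by 33 with the 6 arrays alone, by 29 without some array and by 7 with a replicate block. The block changed no other call of a named gene against the control, and no difference reversed. Among the direct calls, a block lost those of msd5 against Mip130 and of CG5592 and CG5250 against Lin-52. Low signal limits what could be seen: 6172 probe sets were not tested, and genes in the background range have compressed differences. The number of arrays limits the precision.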
